A study of Mus musculus with 45 samples.

Results

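T cell-rich and T cell-poor CT26 tumours were set against each other within experiment T2215, whatever treatment the mice had received. Every tumour of the experiment was given a score, the mean of log2(FPKM + 0.5) of Cd3d, Cd3e and Cd3g, which encode subunits of the CD3 complex that every alpha beta and gamma delta T cell carries beside its antigen receptor. FPKM is a level scaled for gene length and library size. The 9 tumours with the highest score are called T cell-rich, the 9 with the lowest T cell-poor and the other 9 middle, out of 27 tumours in T2215 and 45 in the series. The classes were therefore chosen by measured values and were not assigned by the study, and the 3 score genes are given here as the choice and not as a result.

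CT26 is a colon carcinoma line from the BALB/c strain. It was implanted under the skin of HuGEMM mice, BALB/c animals in which human PD-1 and human TIGIT genes were knocked in, and bulk RNA of the tumours was sequenced as paired-end reads of 150 nucleotides. From day 8, at a tumour volume of 90 to 100 mm3, mice received intraperitoneal injections 2 times a week. The 9 arms of T2215 had 3 tumours each and crossed the PD-1 antibody (serplulimab, pembrolizumab or none) with the TIGIT antibody (HLX53, tiragolumab or none), each antibody at 10 mg/kg, with vehicle as the arm that had neither. The labels give no age, and since all mice carried the knocked-in genes, no group without them stands beside these tumours.

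T cells recognise peptides that other cells show on MHC molecules: CD8 T cells read MHC class I, which almost every cell carries, and CD4 T cells read MHC class II, which dendritic cells, macrophages and B cells carry. Activated T cells and natural killer cells release interferon gamma, which through transcription factors such as IRF1 raises the genes of antigen processing and, through the transactivator CIITA, those of MHC class II. It also raises the chemokines CXCL9 and CXCL10, which draw further T cells through the receptor CXCR3. PD-1 and TIGIT are receptors that restrain T cells and natural killer cells.

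The T cell-rich tumours came from 7 arms. Their scores were 3.78 in Serplulimab 3, 3.46 in Serplulimab and HLX53 2, 3.09 in Vehicle 1, 2.99 in Pembrolizumab and HLX53 1, 2.90 in Serplulimab and HLX53 1, 2.53 in Tiragolumab 2, 2.53 in Vehicle 3, 2.49 in HLX53 2 and 2.24 in Serplulimab and Tiragolumab 2, the number after an arm being the replicate. The T cell-poor tumours came from 5 arms, with scores of 0.83 in Pembrolizumab 1, 0.63 in Pembrolizumab 3, 0.35 in Pembrolizumab and Tiragolumab 1, 0.33 in Serplulimab and Tiragolumab 3, 0.28 in Tiragolumab 1, 0.25 in Pembrolizumab and Tiragolumab 2, 0.24 in Tiragolumab 3, 0.13 in Serplulimab 2 and −0.15 in Serplulimab 1. Just outside the classes, the highest middle tumour (Serplulimab and HLX53 3) had 1.89 and the lowest (Pembrolizumab and Tiragolumab 3) had 1.10. Ranking by the receptor constant genes Trac, Trbc1 and Trbc2 in place of the Cd3 genes gave the same 9 rich and the same 9 poor tumours.

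Arms spread over the classes. Of the 9 tumours that received HLX53, 4 were T cell-rich, 5 middle and 0 poor, while of the 9 that received tiragolumab 2 were rich, 2 middle and 5 poor, and of the 9 with no TIGIT antibody 3 were rich, 2 middle and 4 poor. Among PD-1 antibodies, pembrolizumab had 1 rich, 4 middle and 4 poor tumours, serplulimab had 4, 2 and 3, and no PD-1 antibody had 4, 3 and 2. Serplulimab alone held both the highest and the lowest score of the experiment, and 3 of the 9 arms held rich and poor tumours together. Differences between arms made up 38.6% of the variance of the score. Because antibodies and class were unevenly matched, the comparison of rich with poor tumours was also fitted with the PD-1 and TIGIT antibodies as covariates. That value is given where it ends the call of a gene named below.

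**Figure D1:**
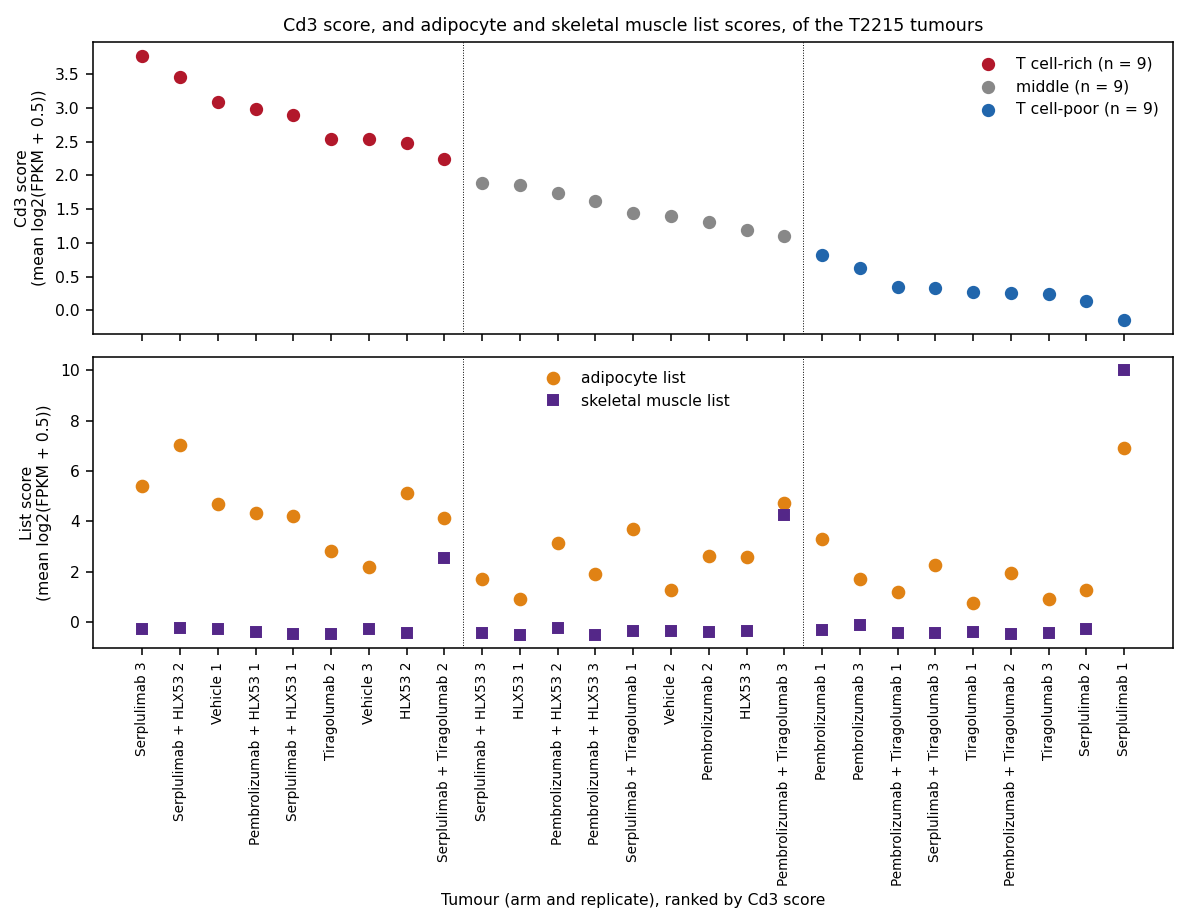
The upper panel shows the Cd3 score of each of the 27 T2215 tumours, ranked from left to right, in red for T cell-rich, grey for middle and blue for T cell-poor. The lower panel shows, for the same tumours, the mean log2(FPKM + 0.5) of the adipocyte and skeletal muscle marker lists; Serplulimab 1, at the right end, stands apart with a muscle score of 10.0.

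Serplulimab 1, the poor tumour with the lowest score, stood apart from all other libraries of the classes. Its 11 tested skeletal muscle genes summed to 23140 FPKM, against at most 6.72 in the other 8 poor tumours and 3.23 to 84.9 in the rich tumours, where Serplulimab and Tiragolumab 2 was the highest. Its adipocyte genes summed to 3805 FPKM, against at most 277 in the other poor tumours. Results are therefore given with and without Serplulimab 1 where the call depends on it. The carcinoma marker Epcam was low throughout, with a lowest, median and highest level of 0.120, 2.44 and 11.02 FPKM in rich tumours and 0.00991, 0.482 and 9.42 FPKM in poor tumours, whereas Vim, a mesenchymal intermediate filament gene, had medians of 2699 FPKM in rich tumours and 2833 FPKM in poor tumours.

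T cell-rich tumours differed from T cell-poor tumours in 2531 of 14911 genes tested (17.0%) at an adjusted p under 0.05, of which 1908 (12.8%) were higher and 623 (4.18%) lower. A difference is the mean log2(FPKM + 0.5) of rich tumours minus that of poor tumours, given with its standard error, and it understates the change of genes near 0.5 FPKM. The increases were larger than the decreases: 709 genes differed by more than 1 on the log2 scale upwards and 27 downwards, while the median over all genes was −0.02. The 9 rich values lay entirely above the 9 poor values in 289 genes (1.94%) and entirely below them in 4 (0.0268%). Since tumours were ranked and not assigned, the p-values say how other genes went with the Cd3 score among these tumours. Without Serplulimab 1 the counts were 3126 (21.0%) higher and 1945 lower, without Pembrolizumab and HLX53 1 they were 1396 and 232, and with libraries centred on their medians they were 1804 and 1331, so that 57.5% of the calls were higher in place of 75.4%. The count of lower genes moved by more than 1.5 times in 15 of the 18 fits that left out a single tumour (232 to 1945), all but those without Serplulimab 3, Serplulimab and HLX53 1 or Serplulimab and Tiragolumab 2. With the antibodies as covariates 491 genes (3.29%) were higher and 25 (0.168%) lower. Standard errors can be larger in that fit, in which no HLX53 tumour was poor, so a lost call alone does not show a smaller difference.

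The label of the classes was checked on T cell genes outside the score. These genes mark the cells that the ranking used, so their calls are given as a check and not as a result. Trac, the constant part of the alpha chain, had a lowest, median and highest level of 6.01, 10.9 and 21.2 FPKM in rich tumours, 2.44, 4.03 and 4.86 FPKM in middle tumours and 0.784, 1.57 and 1.78 FPKM in poor tumours. The classes did not overlap, and Serplulimab and HLX53 2 was highest. Trbc2, a beta chain constant gene, differed by 3.08 ± 0.22 and was likewise free of overlap. All 20 tested members of the T cell identity list of 23 passed upwards in limma, with a median difference of 1.58 (18 of 20 with the antibodies as covariates). In 17 of them the rich and poor tumours did not overlap. In bulk RNA, fewer T cells and less RNA per T cell cannot be told apart.

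Both coreceptors that divide T cells into killer and helper cells were higher. Cd8a (GRCm38 chromosome 6, 71373427 to 71379173), which encodes the alpha chain of the CD8 coreceptor, had 3.51, 5.84 and 11.9 FPKM (lowest, median, highest) in rich tumours and 0.0909, 0.394 and 1.06 FPKM in poor tumours. Cd8b1, its partner chain, differed by 2.85 ± 0.20, next to 2.92 ± 0.21 for Cd8a. Cd4 had 0.899, 2.02 and 7.05 FPKM in rich tumours and 0.240, 0.465 and 0.782 FPKM in poor tumours, a difference of 1.49 ± 0.26 in which the classes did not overlap. Macrophages and dendritic cells can also express Cd4. The FPKM ratio of Cd8a to Cd4 had a median of 2.46 (1.23 to 6.16) in rich tumours, 1.42 (0.656 to 10.98) in middle tumours and 0.784 (0.201 to 2.29) in poor tumours, so the ranges overlapped.

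Receptor V segments, the rearranged part of the antigen receptor that differs between T cell clones, were counted without a test. Rich tumours had a median of 8 (5 to 10) beta chain segments, of 35 listed, at 0.5 FPKM or more, against 4 (1 to 5) in middle tumours and 0 (0 to 1) in poor tumours. Summed over segments, Trbv genes reached 9.65 to 25.9 FPKM in rich tumours and 0.318 to 3.32 FPKM in poor tumours. The leading beta segment held 19.6% to 38.8% of that sum in rich tumours, and it was Trbv13-1 in 5 of 9 rich tumours, Trbv19 in the vehicle tumours Vehicle 1 and Vehicle 3, Trbv5 in Serplulimab and HLX53 2 and Trbv31 in Serplulimab and HLX53 1. The alpha segment Trav3-3 reached 0.5 FPKM in 9 of 9 rich tumours and 1 of 9 poor tumours, led in 6 rich tumours and made up 83.7% of alpha segment signal in Tiragolumab 2. These segments were picked out after their values were seen, reads can be shared between similar segments, and the level of a segment is not a count of clones.

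**Figure D2:**
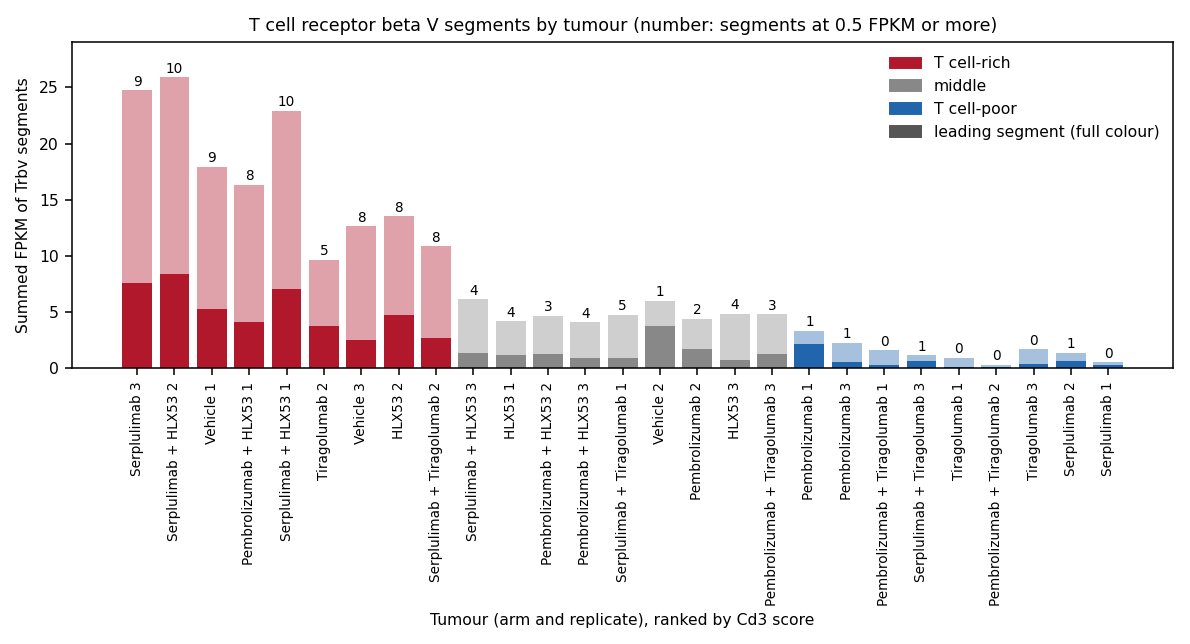
Bars show the summed FPKM of T cell receptor beta V segments in each T2215 tumour, ranked by Cd3 score from left to right, with the leading segment in full colour and the others in pale colour. The number above a bar counts the segments at 0.5 FPKM or more; it is 5 to 10 in rich tumours and 0 or 1 in poor tumours.

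Cytotoxic effector genes were higher in rich tumours, where the 18 tested genes of the CD8 and cytotoxic list all passed the threshold (12.8% of all genes were higher) with a median difference of 2.02, and 14 of 18 passed with the antibodies as covariates. Gzmb (chromosome 14, 56258838 to 56262260), the protease granzyme B that killer cells deliver into their targets, had 51.8, 85.5 and 159 FPKM in rich tumours and 3.52, 18.2 and 84.3 FPKM in poor tumours. Tiragolumab 2 was highest among rich tumours, and Pembrolizumab 3 was the poor tumour that overlapped them. The difference of Gzmb was 2.33 ± 0.44 (limma adjusted p = 0.00119), and that of Prf1, which encodes the pore-forming perforin, was 2.18 ± 0.46 (adjusted p = 0.00298). With antibodies as covariates the differences were 2.30 ± 0.65 and 2.15 ± 0.66, with adjusted p of 0.068 and 0.0958. The sizes hardly moved while the standard errors grew. Tbx21, the transcription factor T-bet, differed by 1.47 ± 0.13 with no overlap. Ifng, encoding interferon gamma, had 1.76, 4.33 and 6.70 FPKM in rich tumours and 0.0187, 0.805 and 2.29 FPKM in poor tumours, a difference of 2.05 ± 0.30 (adjusted p = 0.000141) in which Pembrolizumab 3 again overlapped the rich tumours.

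Genes that interferon gamma induces were higher in rich tumours throughout the list of 23 (23 of 23, median difference 1.83), also with the adipocyte score as a covariate (23 of 23), while 16 of 23 passed with the antibodies as covariates. Ciita (chromosome 16, 10480059 to 10528418), the transactivator of MHC class II genes, had 2.75, 5.18 and 9.02 FPKM in rich tumours and 0.281, 0.697 and 1.45 FPKM in poor tumours, without overlap, and differed by 2.16 ± 0.21 (adjusted p = 2.54e-06). Psmb8, an immunoproteasome subunit that cuts peptides for MHC class I, differed by 1.62 ± 0.20, again without overlap. Cd274, which encodes PD-L1, the ligand of PD-1, had 19.0, 41.5 and 62.8 FPKM in rich tumours and 3.60, 5.97 and 33.8 FPKM in poor tumours. The lowest rich values of Cd274 were in Vehicle 3, Vehicle 1 and Serplulimab 3, and Pembrolizumab 3 was the poor tumour above them. Its difference was 2.07 ± 0.38 (adjusted p = 0.000878), and 1.82 with adjusted p of 0.0611 with the antibodies as covariates.

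MHC class I and its peptide loading were higher by smaller steps from a high level. All 16 tested genes of that list passed, with a median difference of 1.08. B2m, the light chain of every class I molecule, had 3544, 4191 and 4874 FPKM in rich tumours and 1683, 2592 and 3355 FPKM in poor tumours, without overlap, a difference of 0.77 ± 0.12 (adjusted p = 0.000183). H2-T23, a non-classical class I gene, differed by 1.84 ± 0.22 and the classical H2-D1 by 0.89 ± 0.13. Class I genes are near-identical in parts, so reads of H2-Q6, which differed by 1.67 ± 0.21, and its neighbours can be shared. Of the 19 type I interferon response genes 16 were higher, with a median of 0.79. No gene of that list was free of overlap, where 1.94% of all genes were so upwards, too small a share to set the list apart. Rtp4 differed by 1.28 ± 0.21 and Irf7, the factor that amplifies type I interferon, by 1.08 ± 0.20. With the antibodies as covariates 13 of the 16 class I genes and 1 of the 19 type I genes passed, against 3.29% of all genes higher. Irf7 then had limma adjusted p of 0.0639.

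MHC class II genes had the highest median difference of all 32 lists, 2.97. All 9 tested genes of 10 passed, in 8 of them the classes did not overlap, and 8 passed with the antibodies as covariates. H2-Aa (chromosome 17, 34282744 to 34287823), the alpha chain of the I-A molecule, had 43.4, 99.2 and 198 FPKM in rich tumours, 18.3, 32.3 and 45.6 FPKM in middle tumours and 3.96, 8.29 and 18.6 FPKM in poor tumours. Vehicle 3 was lowest and Serplulimab and HLX53 2 highest of the rich tumours, and Pembrolizumab 3 was highest of the poor tumours. The difference of H2-Aa was 3.40 ± 0.28 (adjusted p = 4.7e-07), and that of H2-Eb1, the beta chain of the I-E molecule, was 3.67 ± 0.29 (adjusted p = 2.63e-07). H2-DMb1 and H2-DMb2, subunits of the chaperone that loads peptides onto class II, differed by 2.97 ± 0.23 and 2.52 ± 0.20. The I-E alpha chain gene is annotated as a pseudogene, H2-Ea-ps, because the C57BL/6 reference lacks its start; BALB/c mice carry a working copy. H2-Ea-ps had 177, 419 and 726 FPKM in rich tumours and 14.4, 31.7 and 62.7 FPKM in poor tumours, a difference of 3.42 ± 0.27.

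The bases before the start of 4 class II genes and of Irf1 and Psmb8 are shown because these genes moved together and because class II promoters share a Y box, the site that nuclear factor Y binds beside the factors that recruit CIITA. Sequences are those of RefSeq on GRCm38.p6, 120 bases up to a RefSeq start, on the strand of the gene. Every window printed holds its motif, so these windows do not show how often the motif occurs. In H2-DMb1, H2-DMb2 and Psmb8 the window ends downstream of the annotated gene start (34153072, 34143307 and 34197721). The start shown for these genes is therefore another one. In the first 4, capitals mark GATTGG, the core of the Y box, or CCAATC where it lies on the opposite strand. In Irf1 and Psmb8 capitals mark TTCNNNGAA, the gamma-activated site, a motif of interferon gamma response genes. The windows are chr17:34287824-34287943 (minus strand) for H2-Aa, chr17:34305747-34305866 for H2-Eb1, chr17:34153071-34153190 for H2-DMb1, chr17:34145129-34145248 for H2-DMb2, chr11:53769894-53770013 for Irf1 and chr17:34198075-34198194 for Psmb8, all on the plus strand but the first.
H2-Aa: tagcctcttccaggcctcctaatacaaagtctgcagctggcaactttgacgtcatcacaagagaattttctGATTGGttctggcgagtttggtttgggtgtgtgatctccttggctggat
H2-Eb1: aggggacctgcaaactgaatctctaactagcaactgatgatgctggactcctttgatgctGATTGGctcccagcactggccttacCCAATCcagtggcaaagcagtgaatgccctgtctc
H2-DMb1: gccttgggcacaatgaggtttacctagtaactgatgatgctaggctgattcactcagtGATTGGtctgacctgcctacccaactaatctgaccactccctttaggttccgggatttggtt
H2-DMb2: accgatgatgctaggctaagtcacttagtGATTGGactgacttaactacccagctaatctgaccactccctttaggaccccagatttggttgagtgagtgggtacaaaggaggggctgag
Irf1: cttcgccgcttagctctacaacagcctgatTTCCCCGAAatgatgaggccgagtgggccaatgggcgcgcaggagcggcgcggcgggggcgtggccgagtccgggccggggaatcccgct
Psmb8: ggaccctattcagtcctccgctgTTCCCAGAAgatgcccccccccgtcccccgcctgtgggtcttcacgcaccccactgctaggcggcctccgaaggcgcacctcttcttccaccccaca
Searched on both strands over the 250 bases before the start, GATTGG was found in 8 of 8 class II genes with a promoter entry, against 14.6% of all 32851 promoter entries. The longer CTGATTGG, which contains it, was found in 4 of the 8, against 3.83% of all entries. TTCNNNGAA was found in 7 of 16 interferon gamma response genes with an entry, against 7.02% of all entries. List genes with several start sites were counted once if any window held the motif, while the shares of all entries count each entry. The units therefore differ in favour of the lists. A match in these letters is a description of the window. Irf1, a transcription factor that interferon gamma induces, had medians of 155 FPKM in rich tumours and 46.2 FPKM in poor tumours, and Psmb8 had 284 FPKM and 88.0 FPKM.

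**Figure D3:**
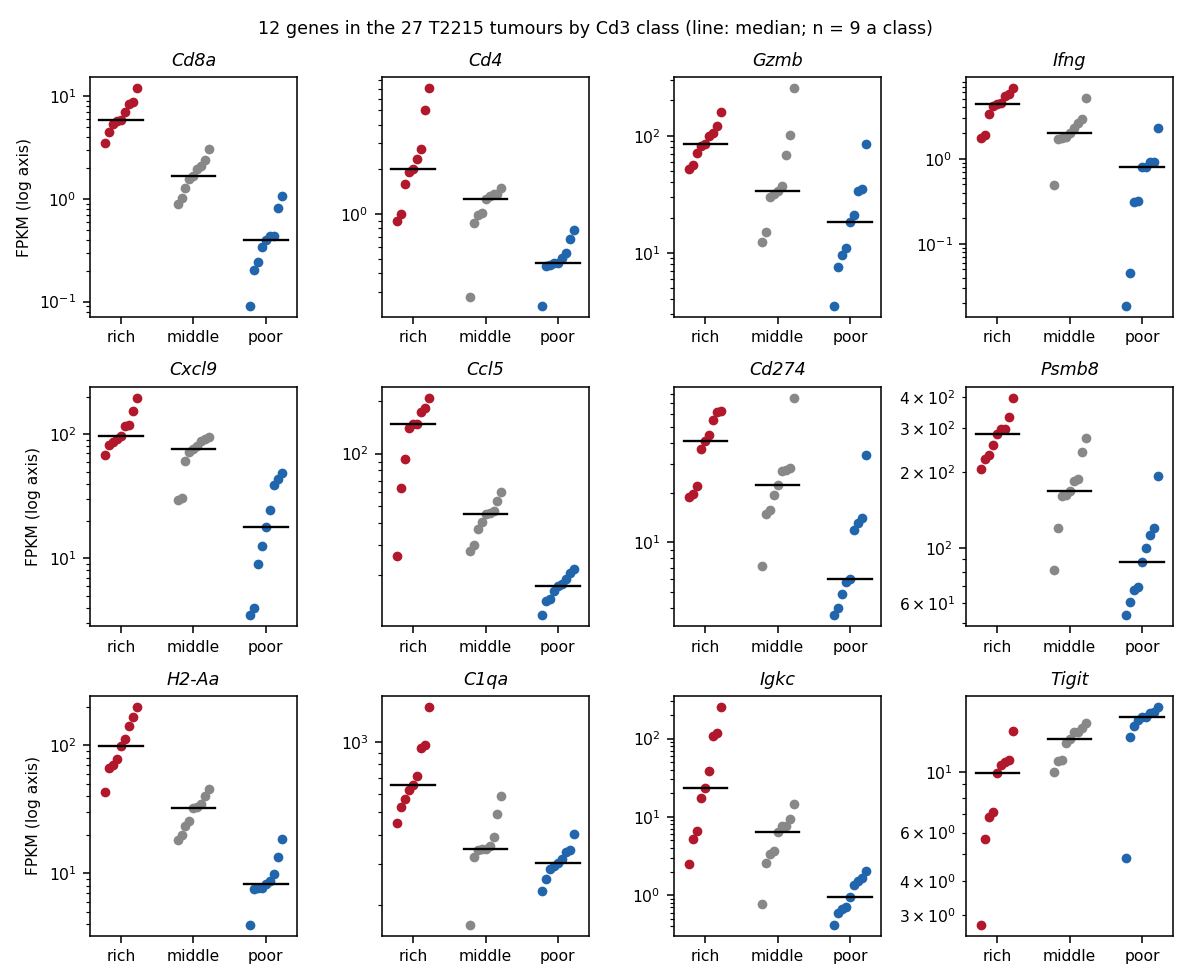
Points show the FPKM, on a log axis, of 12 genes in the 27 T2215 tumours, with T cell-rich tumours on the left of each panel, middle tumours in the centre and T cell-poor tumours on the right (9 each), and a line at the median. Cd8a, Cd4, Cxcl9, Ccl5, Psmb8, H2-Aa, C1qa and Igkc are free of overlap between rich and poor tumours; Tigit runs the other way.

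Chemokines that draw T cells were higher in rich tumours in 10 of 13 genes tested, with a median of 1.50, and 9 of 13 passed with the antibodies as covariates. Cxcl9 had 68.4, 96.9 and 197 FPKM in rich tumours and 3.48, 17.8 and 48.6 FPKM in poor tumours, without overlap, a difference of 2.71 ± 0.45 (adjusted p = 0.000362). Ccl5, which T cells, natural killer cells and myeloid cells release, had 25.9, 148 and 209 FPKM in rich tumours and 11.8, 17.5 and 21.8 FPKM in poor tumours, and Vehicle 3 and Vehicle 1 were the lowest rich tumours. Cxcl10 differed by 1.50 ± 0.28 with overlap. Their receptors, carried by activated T cells, were higher too: Cxcr3 differed by 1.87 ± 0.25 and Cxcr6, the receptor of Cxcl16, by 2.71 ± 0.20.

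Some B cell, plasma cell and lymphoid tissue genes were higher in rich tumours. Igkc (chromosome 6, 70726435 to 70726966), the constant part of the kappa light chain of antibodies, had 2.50, 23.5 and 251 FPKM in rich tumours and 0.421, 0.938 and 2.02 FPKM in poor tumours. Its 3 highest values were in Serplulimab and HLX53 2, Serplulimab and HLX53 1 and Pembrolizumab and HLX53 1, and no rich tumour fell within the range of the poor tumours. The difference was 4.13 ± 0.70 (adjusted p = 0.000447), next to 2.52 ± 0.35 for Ighm, the heavy chain of IgM. Of the lists, 3 of 5 B cell genes, 4 of 7 plasma cell genes and 4 of 5 lymphoid tissue genes were higher, and 1 of 5, 3 of 7 and 3 of 5 with the antibodies as covariates. Cxcl13, the chemokine that draws B cells into follicles, differed by 3.34 ± 0.55 (adjusted p = 0.000365), with 7.74 FPKM as the median of rich tumours and 0.17 FPKM of poor tumours. Ltb, a lymphotoxin subunit that organises lymphoid tissue, differed by 1.99 ± 0.18 without overlap. The 5 lymphoid tissue genes summed to 9.58 to 59.6 FPKM in rich tumours and 2.34 to 14.9 FPKM in poor tumours, the highest poor value being Serplulimab 1. Whether tissue beside the tumour took part in these differences was not tested.

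Among checkpoint receptors 10 of 12 were higher, 6 of them with the antibodies as covariates, while Tigit was lower without passing the threshold. Lag3, an inhibitory receptor that binds MHC class II, differed by 2.03 ± 0.23 and Pdcd1, the mouse gene model for PD-1, by 1.79 ± 0.20, both without overlap. Havcr2, which encodes TIM-3 and is also carried by myeloid cells, differed by 1.33 ± 0.27 (adjusted p = 0.00202, and 0.0694 with the antibodies as covariates). Tigit (chromosome 16, 43648867 to 43664146) had 2.77, 9.92 and 14.1 FPKM in rich tumours and 4.86, 15.9 and 17.2 FPKM in poor tumours. Of the poor tumours Serplulimab 1 alone lay under 13 FPKM. The difference was −0.73 ± 0.26 (limma adjusted p = 0.0615), and −0.91 without Serplulimab 1 (adjusted p = 0.00626). With the antibodies as covariates it shrank to −0.24 ± 0.32 (adjusted p = 0.752). With the adipocyte score as a covariate it was −0.097 (adjusted p = 0.916). The mice carry the human genes of both receptors, and the sources do not say how reads of human sequence were assigned.

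Regulatory T cell genes were higher in 7 of 8, with a median of 1.17, and 4 of 8 passed with the antibodies as covariates. Ctla4, an inhibitory receptor carried by these cells and by activated T cells, differed by 1.55 ± 0.19, and Tnfrsf18, the costimulatory receptor GITR, by 1.50 ± 0.18, both without overlap. Foxp3, the defining transcription factor, was low, with 0.196, 0.762 and 1.30 FPKM in rich tumours and 0.105, 0.242 and 0.473 FPKM in poor tumours. Its difference was 0.64 ± 0.17 (limma adjusted p = 0.0164, and 0.245 with the antibodies as covariates). With the adipocyte score as a covariate Foxp3 had adjusted p of 0.325. No poor tumour reached 0.5 FPKM of Foxp3, so it passed the low-value filter through other tumours. Of 9 naive and memory T cell genes 5 were higher, among them Tcf7, the factor TCF-1 of stem-like T cells, at 1.14 ± 0.22 (adjusted p = 0.137 with the antibodies as covariates), and 1 of 9 passed in that fit. Of 6 gamma delta genes 4 were higher, 2 of 6 with the antibodies as covariates. Trdc, the delta chain constant gene, differed by 0.74 ± 0.12, with medians of 0.803 FPKM in rich tumours and 0.284 FPKM in poor tumours. The called genes Tcrg-C2 and Tcrg-C4 stayed under 0.5 FPKM in every poor tumour (highest 0.230 and 0.213). Tcrg-C4 had limma adjusted p of 0.083 with the antibodies as covariates.

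Antigen-presenting and other innate cells followed in part. Clec9a and Xcr1, both markers of the type 1 dendritic cells that cross-present antigen to CD8 T cells, differed by 1.46 ± 0.18 and 1.33 ± 0.18 without overlap. Both were low, with medians of 1.47 and 1.10 FPKM in rich tumours. No poor tumour reached 0.5 FPKM (highest 0.457 and 0.441), so both passed the low-value filter through other tumours. Of 14 dendritic cell genes 11 were higher and 1 lower. Of 18 macrophage and monocyte genes 12 were higher, with a median of 1.07. C1qa, a complement gene of macrophages, had 451, 653 and 1407 FPKM in rich tumours and 229, 304 and 403 FPKM in poor tumours, without overlap. Ly6c2, a marker of inflammatory monocytes that T cells also express, differed by 2.20 ± 0.31 (adjusted p = 8.01e-05). With the antibodies as covariates 3 of the 14 dendritic cell genes and 5 of the 18 macrophage genes passed, and Adgre1, the macrophage marker F4/80, differed by 1.21 ± 0.20 (adjusted p = 0.000317) without them and had adjusted p of 0.0554 with them.

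All 5 tested natural killer cell genes were higher, and 4 of 5 passed with the antibodies as covariates. Ncr1, the receptor NKp46, had 3.54, 5.10 and 6.68 FPKM in rich tumours and 0.859, 1.66 and 4.89 FPKM in poor tumours, where Pembrolizumab 3 was the highest. Mast cell genes were higher in 7 of 9, among them the tryptase Tpsb2 at 1.34 ± 0.26 and Cpa3, a mast cell protease, at 1.15 ± 0.24. With the antibodies as covariates 2 of 9 mast cell genes passed, and Cpa3 had adjusted p of 0.083. Neutrophil genes passed in 3 of 14, where 12.8% of all genes were higher. Csf3r, the receptor for granulocyte colony-stimulating factor, differed by 1.62 ± 0.32 (limma adjusted p = 0.0516 with the antibodies as covariates). In that fit 0 of 14 neutrophil genes passed (2 of 14 at an unadjusted p under 0.05), against 3.29% of all genes. S100a8, a calcium-binding protein of neutrophils, differed by 1.08 ± 0.71 (adjusted p = 0.263).

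Tumours of the classes also differed in fat tissue signal. The 11 tested adipocyte genes summed to 157 to 4582 FPKM (median 664) in rich tumours and 105 to 3805 FPKM (median 132) in poor tumours, or at most 277 FPKM in poor tumours without Serplulimab 1. Of these genes 5 passed in all tumours, 11 without Serplulimab 1 and 0 with the antibodies as covariates (1 at an unadjusted p under 0.05), and their median difference was 2.15, 2.77 and 1.22 in the 3 fits. Cfd, the adipocyte protease adipsin, had 14.6, 141 and 1372 FPKM in rich tumours and 0.632, 6.06 and 1019 FPKM in poor tumours, and had adjusted p of 0.0233 in all tumours and 0.199 with the antibodies as covariates. With the adipocyte score as a covariate, 18 of 18 cytotoxic, 23 of 23 interferon gamma response, 16 of 16 MHC class I and 9 of 9 MHC class II genes passed, against 5.35% of all genes higher and 0.738% lower. In the same fit 6 of 14 dendritic cell, 6 of 18 macrophage, 2 of 9 mast cell, 2 of 7 plasma cell and 0 of 20 fibroblast genes passed.

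Stroma and tumour cell programmes differed less or only without Serplulimab 1. Fibroblast and matrix genes passed in 2 of 20 (12.8% of all genes were higher), in 13 of 20 without Serplulimab 1 (21.0% of all genes) and in 0 of 20 with the antibodies as covariates (3.29% of all genes; 1 higher and 1 lower at an unadjusted p under 0.05). Col1a1, the alpha chain of type I collagen, had 67.2, 203 and 1165 FPKM in rich tumours and 37.2, 93.4 and 825 FPKM in poor tumours, a difference of 1.67 ± 0.63 (adjusted p = 0.0717) and of 2.06 without Serplulimab 1 (adjusted p = 0.00949). Endothelial genes passed in 4 of 17, where 12.8% of all genes were higher. Among them was the adhesion molecule Icam1 (1.36 ± 0.23), which leukocytes share and inflammation induces. With the antibodies as covariates 1 of 17 endothelial genes passed, against 3.29% of all genes. Of 22 cell cycle genes 0 passed in limma (1 lower at an unadjusted p under 0.05), where 4.18% of all genes were lower. Their median difference was −0.26, and a count of 0 near that share does not show that they were unchanged. Mki67, the proliferation marker, had medians of 19.3 FPKM in rich tumours and 29.8 FPKM in poor tumours. Its difference was −0.35 ± 0.16 (limma adjusted p = 0.136, and 0.0435 without Serplulimab 1). With the antibodies as covariates the difference of Mki67 was −0.13 (adjusted p = 0.75). Of 17 hypoxia and glycolysis genes 1 was higher and 0 lower, against 12.8% and 4.18% of all genes. With the antibodies as covariates 0 of them passed (1 higher at an unadjusted p under 0.05), against 3.29% of all genes higher. Of 13 mitochondrial transcripts 0 passed without these covariates (3 lower at an unadjusted p under 0.05), against the same 12.8% and 4.18%. Smad3, a transducer of TGF beta signals, differed by −0.43 ± 0.11 (adjusted p = 0.0129), while Tgfb1, a ligand gene of the pathway, differed by 0.39 ± 0.10 (adjusted p = 0.0122), and neither passed with the antibodies as covariates (adjusted p = 0.0802 and 0.167).

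**Figure D4:**
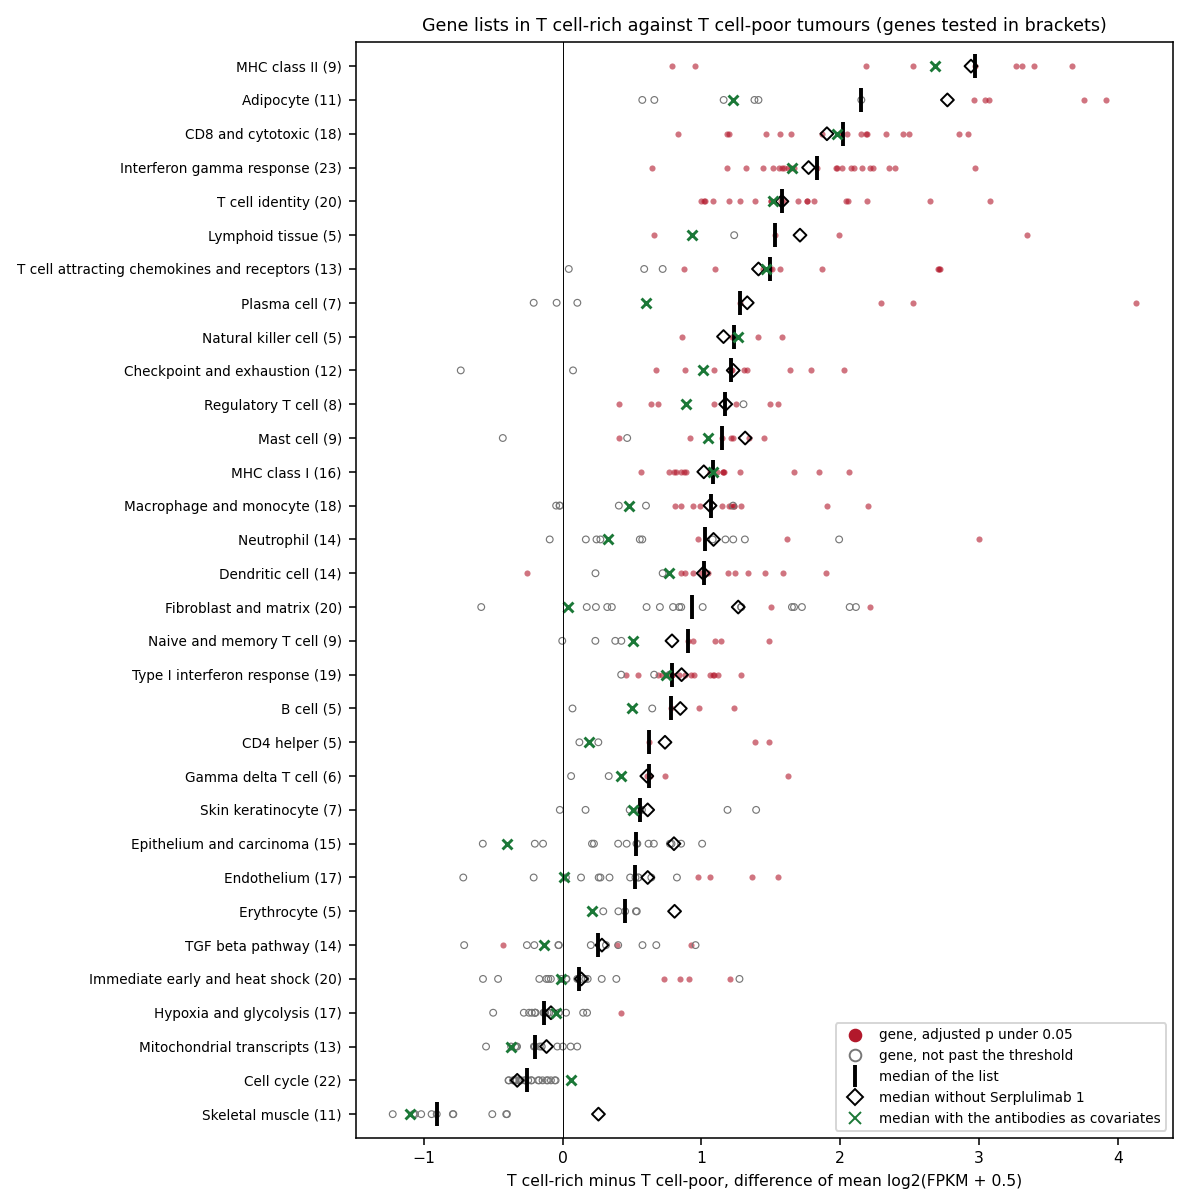
Each row is a gene list with its number of tested genes, and each point is the difference of a gene, T cell-rich minus T cell-poor, in mean log2(FPKM + 0.5) (red where the adjusted p was under 0.05, open where not). Black bars mark the list medians, open diamonds the medians without Serplulimab 1 and green crosses the medians with the antibodies as covariates; MHC class II lies at 2.97, 2.94 and 2.69, and the fibroblast list at 0.93, 1.27 and 0.04.

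The largest differences upwards among all 14911 genes tested were those of Mup10 and Mup9, major urinary protein genes of a near-identical family on chromosome 4 whose reads can be shared. Mup10 had medians of 43.0 FPKM in rich tumours and 0.129 FPKM in poor tumours, where Serplulimab 1 reached 558 FPKM, and its difference was 4.59 ± 1.22 (adjusted p = 0.0158). With the adipocyte score as a covariate it was 1.18 (adjusted p = 0.272), and with the antibodies as covariates 3.44 (adjusted p = 0.247); Mup9 had adjusted p of 0.297 in that fit. The largest decreases were smaller, between −2.30 and −1.13. Glod5, a glyoxalase domain gene on chromosome X, had 1.97, 10.3 and 27.7 FPKM in rich tumours and 18.2, 23.2 and 30.8 FPKM in poor tumours, and differed by −1.35 ± 0.36 (adjusted p = 0.0167). Cldn6, a tight junction claudin, differed by −1.21 ± 0.34 and Snhg14, a host gene of small nucleolar RNAs, by −1.28 ± 0.28. None of the 8 largest decreases passed with the antibodies as covariates, and 5 of them lost the call when some single tumour was left out (Rn7s1, Fcrls, Cldn9, Lgr6 and Platr16).

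Experiment T2106, whose 18 tumours the ranking did not use, gave other tumours, treated with the same antibodies. Its 6 arms of 3 tumours were serplulimab plus HLX53 at 5 mg/kg, the same pair with HLX53 at 10 mg/kg, tiragolumab plus pembrolizumab, HLX53 alone, serplulimab alone and vehicle, and its Cd3 scores ran from 0.24 to 4.96. The score followed treatment in part. Ranks 1, 2, 3, 4 and 6 were serplulimab plus HLX53 tumours, and the remaining tumour of these arms ranked 15. The tiragolumab plus pembrolizumab tumours ranked 16, 17 and 18. All 18 tumours were kept and the change in log2(FPKM + 0.5) per unit of the score, the slope, was fitted in limma. The main fit held no antibody or arm covariate, so its slopes do not separate the score from treatment. Slopes were called higher in 5297 of 15067 genes (35.2%) and lower in 4896 (32.5%). In a further fit with the treatment arm as a block 4963 were higher and 3941 lower, and 8232 genes were called in both fits. The other T2106 values given here come from fits without that block. Of the 1902 genes higher in rich tumours of T2215 that were tested in T2106, 1798 had a slope above 0 (94.5%, against 48.1% of all genes) and 1611 passed. Of the 621 lower genes 605 had a slope under 0 (97.4%, against 51.9% of all genes) and 527 passed. With the adipocyte score of T2106 as a covariate, 285 of the 1902 higher genes and 1 of the 621 lower genes passed, and 337 genes in all were higher (2.24%) and 6 lower (0.0398%).

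T cell genes and MHC class II rose with the score in T2106 as well. In limma 20 of 20 T cell identity genes passed (17 with the adipocyte score), as did 9 of 9 class II genes (5 with it). The slope of Cd8a was 1.01 ± 0.04, that of Lag3 0.67 ± 0.04 and that of H2-Aa 1.14 ± 0.14. Interferon gamma response genes passed upwards in 9 of 23 and downwards in 3 of 23, with a median slope of 0.07. MHC class I genes passed upwards in 5 of 16 and type I interferon genes in 2 of 19. With the adipocyte score 1, 0 and 0 genes of these lists passed upwards. Of all genes 35.2% passed upwards and 32.5% downwards, so none of these lists stood clearly above the upward share. CD8 and cytotoxic genes passed upwards in 13 of 18, with a median slope of 0.44 (11 of 18 with the adipocyte score). Gzmb had a slope of 0.05 ± 0.12 (adjusted p = 0.717), Prf1 0.03 ± 0.14 (adjusted p = 0.843), Cxcl9 0.28 ± 0.13 (adjusted p = 0.0571) and B2m 0.03 ± 0.05 (adjusted p = 0.578). Cell cycle genes passed downwards in 22 of 22, with a median slope of −0.26, and in 0 of 22 with the adipocyte score, with a median slope of −0.15. The Tigit slope was −0.47 ± 0.10 (adjusted p = 0.000496), and −0.16 with the adipocyte score (adjusted p = 0.44). The tables of the experiments were normalised separately and the difference between their slopes was not tested.

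**Figure D5:**
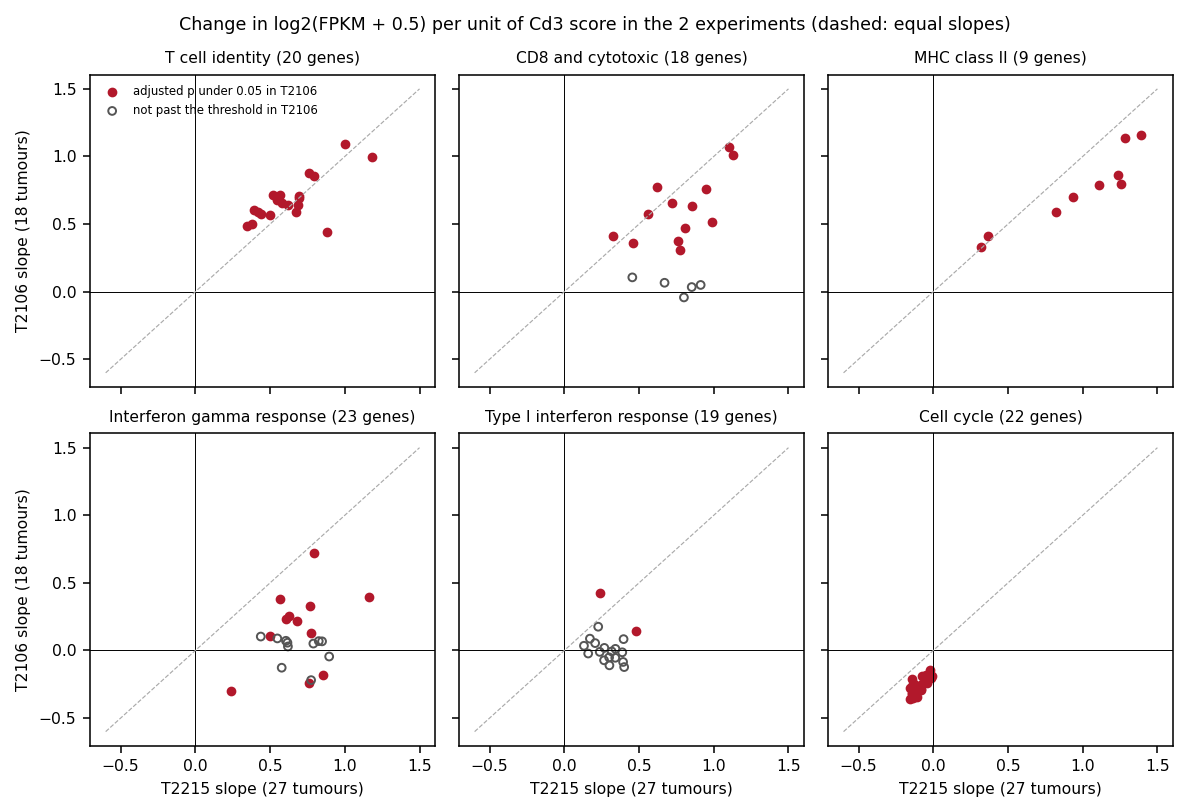
Each point is a gene, with its slope on the Cd3 score in the 27 T2215 tumours on the horizontal axis and in the 18 T2106 tumours on the vertical axis (change in log2(FPKM + 0.5) per unit of score; red where the adjusted p in T2106 was under 0.05). T cell identity genes lie on both sides of the dashed line of equal slopes and most MHC class II genes under it, while interferon gamma response genes, with a median T2106 slope of 0.07, centre near 0 on the vertical axis.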

How the data were processed

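Bulk tumour RNA was measured in 27 tumours of experiment T2215 and 18 of T2106. The authors deposited 1 table per experiment of log2 FPKM values per gene, normalised separately. The submitters' processing notes name STAR, Bowtie, Trimmomatic and FastQC, and as builds mm10, hg19 and GRCh37, without roles; the program that made the FPKM values is not stated there. Read depth is unknown, so no counting error is given, and precision rests on the number of tumours. Between 12918 and 14442 genes reached 0.5 FPKM in a T2215 library.

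Values were turned back into FPKM and tested as log2(FPKM + 0.5) with limma 3.58.1 (R 4.3.3, eBayes with trend) over 14911 genes at 0.5 FPKM or more in at least 3 of 27 libraries, leaving out Cd3d, Cd3e and Cd3g. P-values were adjusted over all tested genes by the Benjamini-Hochberg method, with a threshold of 0.05. The classes and the 32 gene lists were chosen with earlier results of these data known. The labels do not say more of how tumours of an arm relate than that each is a separate tumour, so p-values measure the spread between tumours. The genes named were the 8 largest increases and 8 largest decreases past the threshold (leaving out unnamed gene models and receptor segments), up to 3 members with the smallest p per list, and a fixed panel; Irf1, Vim and the receptor segments were picked with their values known. A few genes of the lists are not reported here. Gene positions come from GENCODE M21 on GRCm38 (109 of 109 named genes found) and promoters from the RefSeq table. The fit was tested on simulated data. The alternatives were the pseudocount, the low-value filter, centring, the class size, covariates, a replicate block and leaving out each tumour. Same-numbered tumours of different arms did not deviate together.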

Additional observations from a re-analysis of the deposited data

Results flagged for a closer look

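In 25 of 216 sets of class and gene (11.6%), a single tumour lay far from the other 8 of its class by Dixon's criterion; chance alone gives about 1 in 20. Serplulimab 1, the poor tumour with muscle and fat signal, accounted for 18 of them. Its high values were 5349 FPKM for Acta1 (muscle actin), 681.2 FPKM for Mup9, 557.6 FPKM for Mup10, 122.7 FPKM for Adipoq and 46.53 FPKM for Plin1 (both adipocyte genes). In stroma and vessel genes it was also high, with 824.9 FPKM for Col1a1, 89.2 FPKM for Mmp2, 85.63 FPKM for Thy1, 55.68 FPKM for Plvap and 29.14 FPKM for Eng. Further high values of this tumour were 14.34 FPKM for Fos, 9.422 FPKM for Epcam, 2.145 FPKM for Gata3 and 2.142 FPKM for Cxcl13. Its low values were 18.56 FPKM for Mki67, 11.21 FPKM for Platr16, 7.956 FPKM for Snhg14 and 4.864 FPKM for Tigit.

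Among the rich tumours, Serplulimab and HLX53 2 was high in Clec9a at 4.777 FPKM and low in Eno1 at 346.1 FPKM. Serplulimab and Tiragolumab 2 was high in Acta1 at 21.53 FPKM, and Serplulimab 3 in Tcrg-C2, a gamma chain constant gene, at 4.962 FPKM. Among the other poor tumours, Pembrolizumab 3 was high in Icos at 1.194 FPKM, Pembrolizumab 1 in Pdcd1 at 0.5091 FPKM, and Serplulimab 2 was low in Tcf7 at 0.2247 FPKM.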

How the results depend on the processing

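Against 2531 genes called between rich and poor tumours, the count was 1371 with no filter on low values, 516 with the antibodies as covariates, 908 with the adipocyte score as a covariate, 4283 with the middle tumours in the fit, 5455 with the continuous score over 27 tumours and 1035 with 6 tumours a class. It was 4945 without the libraries with muscle signal (an alternative chosen after seeing the data), and from 1628 (without Pembrolizumab and HLX53 1) to 5071 (without Serplulimab 1) with a single tumour left out. In T2106 the count was 10193, against 343 with the adipocyte score and 8473 to 10390 with a tumour left out. List medians changed sign for the TGF beta pathway (−0.13 with the antibodies, −0.051 with the adipocyte score), the epithelium list (−0.40 and −0.38), the fibroblast list (−0.091 with the adipocyte score) and the adipocyte list (−0.20 with that score). Further changes of sign, within the spread between tumours, were those of the cell cycle list (0.06 with the antibodies and with the adipocyte score), the erythrocyte list (−0.51 with the adipocyte score), the immediate early list (−0.015 and −0.0059), the skeletal muscle list (0.26 without Serplulimab 1) and the TGF beta list under the continuous score with the arm as a block; the cause was not tested. With the replicate block, 1797 genes were called (1502 higher, 295 lower) and 10001 in T2106, but same-numbered tumours had a mean correlation of deviations of −0.02, so the numbers do not pair them. Of 99 named genes called, 86 kept the call in all 18 fits without a single tumour and 13 lost it in some. With the antibodies as covariates 43 of the 109 named genes lost the call, and no named gene that was called changed sign under any alternative run. Depth is unknown, which limits what can be said of genes near 0.5 FPKM.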
